A study of Mus musculus with 17 samples.

Results

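Transcript levels of 35 genes of T cells and natural killer (NK) cells were followed through 17 RNA libraries of mouse bone marrow progenitors. The genes were taken as a list of symbols from 47643 gene entries of the count table, and all 35 were found by Ensembl identifier. They were grouped by role into the T cell receptor complex (4 genes), signalling next to the receptor (6), lineage transcription factors (5), coreceptors and other surface receptors (9), cytokine and chemokine receptors (3), cytotoxic and secreted effectors (6) and NK cell receptors (2).

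T cells recognise antigen through a receptor whose signal is carried into the cell by the CD3 chains and the kinases Lck and Zap70. NK cells kill target cells with perforin and granzymes under the control of activating and inhibitory receptors. Mature cells of either kind do not belong in a sort of progenitors, but several of these genes, Cd27 and Thy1 among them, are also known on stem cells and early progenitors of the mouse bone marrow.

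The cells carried cKit, a receptor of stem and progenitor cells, and were sorted as negative for lymphoid and erythroid surface markers; the antibodies of that sort are not named. The groups were wild type (WT, URE+/+;Tet2+/+, 3 libraries), URE het (UREΔ/+;Tet2+/+, 3), Tet2 het (URE+/+;Tet2+/-, 3), Tet2 KO (URE+/+;Tet2-/-, 3), URE het Tet2 het (UREΔ/+;Tet2+/-, 2) and URE het Tet2 KO (UREΔ/+;Tet2-/-, 3). URE is the upstream regulatory element, an enhancer of Spi1, which encodes the transcription factor PU.1, and Tet2 is a DNA demethylase. All 12 libraries without both mutations were labelled Normal, and the 5 of the compound groups acute myeloid leukaemia (AML), so leukaemia and the compound genotype cannot be told apart. The labels call the controls age-matched without giving ages, do not name the Tet2 allele, and do not say whether libraries came from different mice, so p-values measure the spread between these libraries. Libraries are numbered within each group only to name them, and the numbers pair nothing across groups. The sample titles number the libraries from 1 to 17, and the ranges 1 to 7 and 8 to 17 each hold every genotype, so the comparison of AML with Normal was also fitted within each range; the labels do not call these ranges a batch.

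Each library held 21.1 to 38.3 M counts over genes (median 32.2 M). Levels are CPM, counts per 1 M scaled by the trimmed-mean method (TMM). Kit, the gene of the sorted receptor, ran from 100 to 187 CPM in Normal and from 117 to 170 CPM in AML libraries. Spi1 ran from 45.3 to 137 CPM in Normal and from 7.83 to 98.6 CPM in AML. Its log2 fold change was -1.25 ± 0.52 (edgeR adjusted p = 0.135). Normal levels of Spi1 differed by title number, at 90.9 to 137 CPM in 1 to 7 and 45.3 to 63.1 CPM in 8 to 17. In 8 to 17 all AML libraries lay below every Normal library. They stood at 34.9 CPM in URE het Tet2 het and 7.83 and 12.2 CPM in URE het Tet2 KO. In 1 to 7 URE het Tet2 het, at 21.6 CPM, lay below every Normal library. URE het Tet2 KO, at 98.6 CPM, lay within the Normal range there. Tet2 was higher in AML by 0.55 ± 0.14 (adjusted p = 0.0261). Counts cover whole genes, so neither level checks an allele.

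Most of the T and NK cell genes were rare in these cells. Of the 35, 14 averaged at least 1 CPM over the 17 libraries, 8 lay between 0.5 and 1 CPM and 13 under 0.5 CPM. Nkg7, a granule protein of cytotoxic lymphocytes, was the most abundant at a mean of 88.7 CPM, followed by Cd27, a costimulatory receptor of the tumour necrosis factor receptor family, at 40.4 CPM. Per kilobase of exon, a scale that allows genes to be compared, the mean level was 97.1 CPM for Nkg7, 17.4 for Cd27, 3.29 for Ccl5, 2.13 for Thy1 and 1.74 for Ncr1. Over the Normal libraries alone these means were 117, 22.6, 4.13, 0.436 and 2.20, so Thy1 lay below Ncr1 there.

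Genes with too few counts to judge were Cd8a and Tbx21, which did not pass the filter on low counts. Cd8a, a chain of the coreceptor of cytotoxic T cells, had 0 counts in 10 libraries and at most 8 in any. It was at 0 in all URE het and all URE het Tet2 het libraries, where 3 counts over the group, the limit that a count of 0 allows, would be 0.0326 and 0.0385 CPM. Tbx21, which encodes the type 1 transcription factor T-bet, had 0 counts in 8 libraries and at most 12. Among the 33 genes tested, Cd3e reached 10 counts in 3 libraries, Bcl11b and Il2ra in 4 each, and Cd3g, Zap70 and Sh2d1a in 5 each. Fold changes of such genes depend on a few reads in a few libraries.

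**Figure D1:**
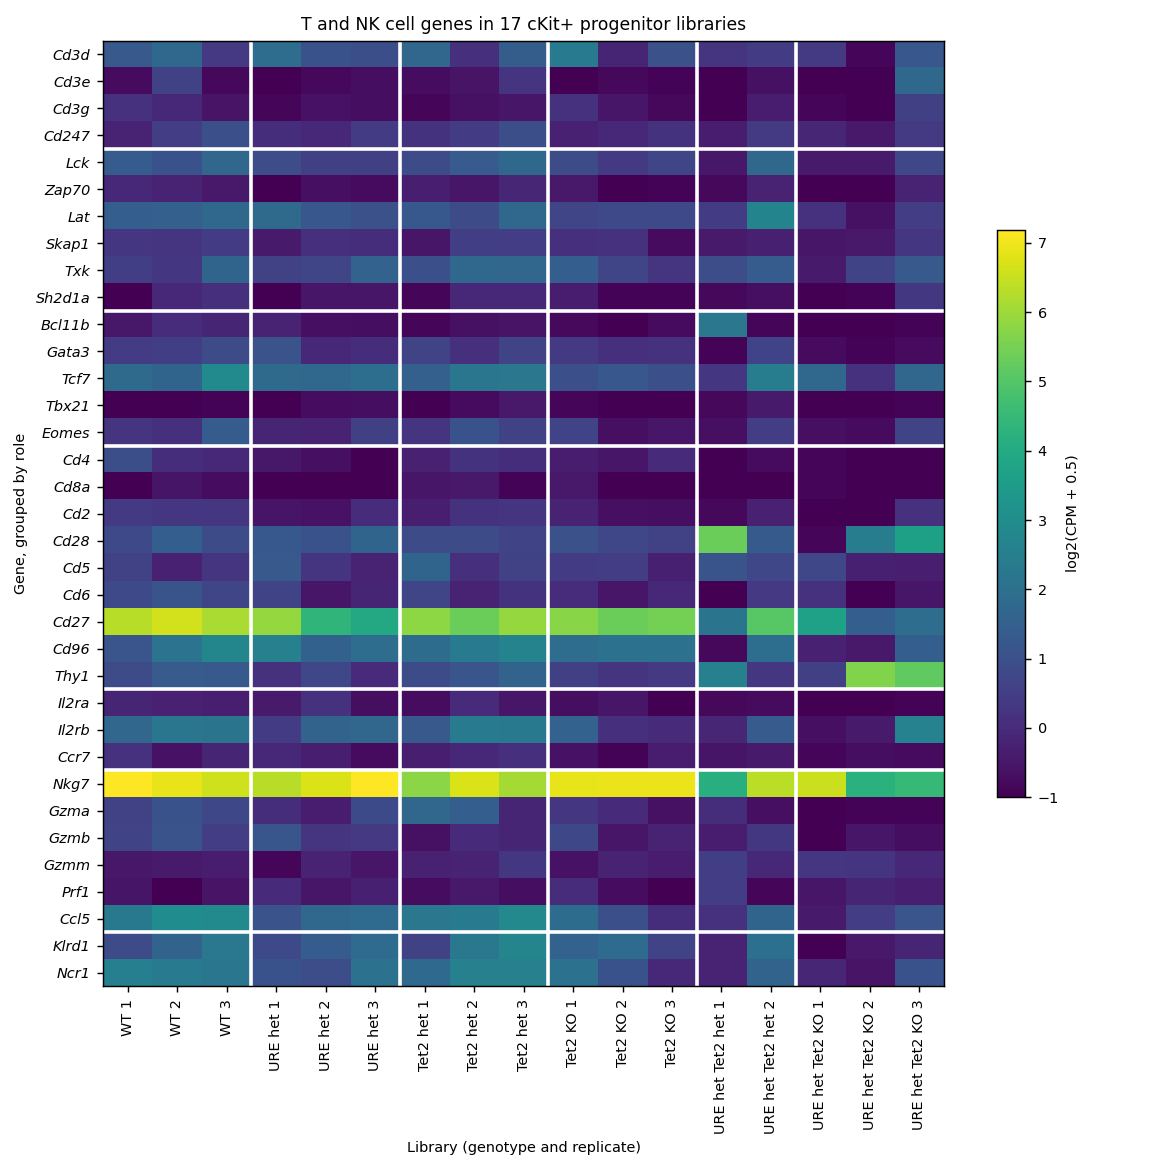
Level of each of the 35 genes as log2(CPM + 0.5), by colour, with 1 column per library and 1 row per gene; white lines separate the genotypes and the roles. Nkg7 and Cd27 stand out as bright bands that darken in most compound mutant libraries, while Thy1 is bright in URE het Tet2 KO libraries 2 and 3 and Cd28 in URE het Tet2 het library 1.

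The comparison of AML with Normal took the average of the compound groups less that of the 4 other genotypes on the log2 scale. Of the 33 genes tested, 7 passed an adjusted p of 0.05 in edgeR's quasi-likelihood test (Benjamini-Hochberg over 19951 genes). Cd28 and Thy1 were higher, and Cd27, Cd4, Gata3, Gzma and Il2ra were lower. Over all genes tested 11% passed, 6.94% higher and 4.02% lower, against 6.06% higher and 15.2% lower among the 33. The median log2 fold change of the 33 was -0.70, and 24 of them were negative, beside a median of 0.05 and 45.8% negative over all genes. With 1 library left out, from 1 to 15 of the 33 passed, beside 845 to 3998 of all genes. Gzma was the only 1 of the 7 that passed in every such omission. The count moved most when a URE het Tet2 het library was omitted, which leaves a lone library in that group. In bulk RNA fewer cells of a type and less RNA per cell cannot be told apart. The fit shares its spread among all groups, and each log2 fold change is given with an approximate standard error (its absolute value divided by the root of F).

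**Figure D2:**
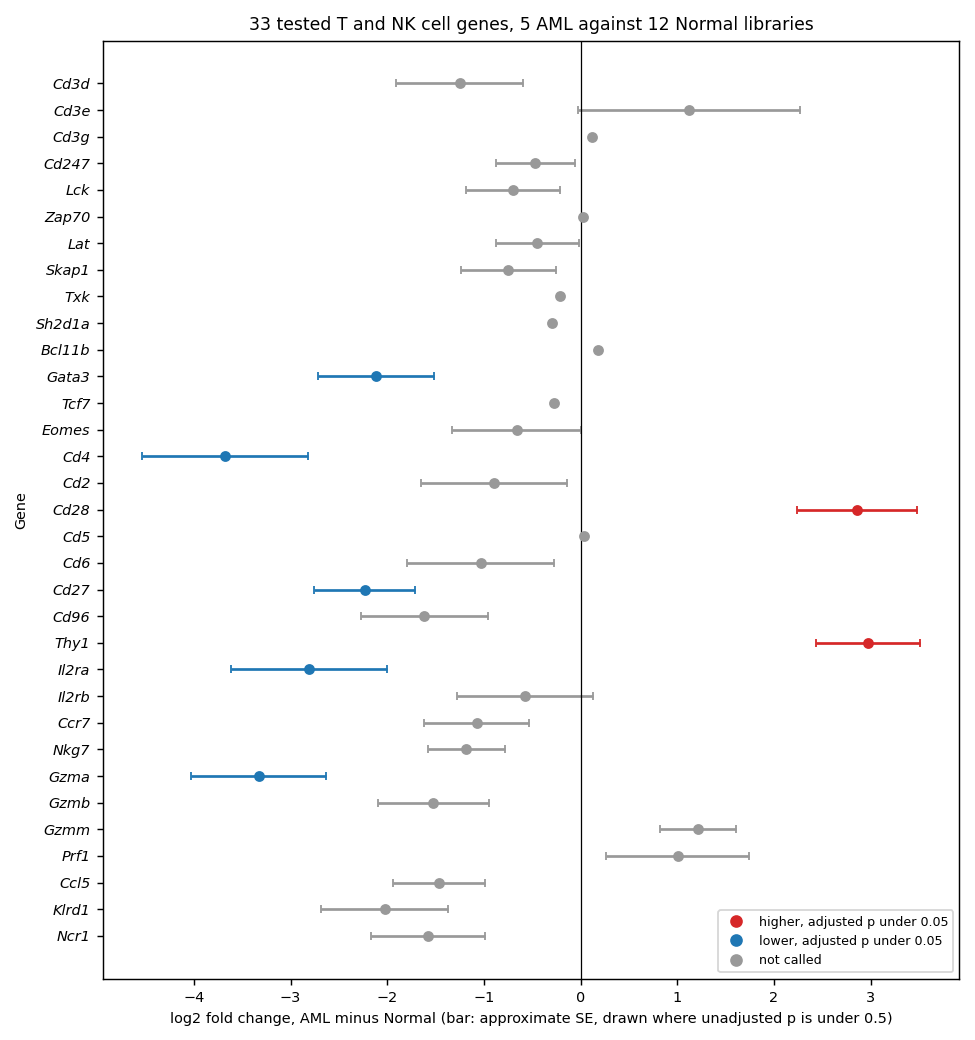
Log2 fold change of AML minus Normal for the 33 tested genes, 5 against 12 libraries; bars show the approximate standard error where the unadjusted p was under 0.5. The 2 red points on the right are Cd28 and Thy1, at 2.86 and 2.97, and the 5 blue points on the left run from -3.68 for Cd4 to -2.12 for Gata3.

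Promoter sequence was looked up for the genes that passed, to show what the genes that fell have next to a RefSeq start. RefSeq (GRCm38.p6) gave promoters for 24 of the 35 genes, 31 in all, and the 250 bases before the start were searched on both strands for GAGGAA, a core bound by ETS factors such as PU.1, TGTGGT of Runx factors, CACCTG of E proteins and AGATAA of GATA factors. The promoters of 4 of the 5 genes that fell are shown in full, with matches in capitals. The promoter set used held no entry for Cd4 or for either gene that rose, Cd28 and Thy1. The RefSeq start used for Gata3 lies inside the gene span of the annotation, so its window is next to an internal start and not at the end of that span.
Gata3, chr2:9878601-9878850, minus strand: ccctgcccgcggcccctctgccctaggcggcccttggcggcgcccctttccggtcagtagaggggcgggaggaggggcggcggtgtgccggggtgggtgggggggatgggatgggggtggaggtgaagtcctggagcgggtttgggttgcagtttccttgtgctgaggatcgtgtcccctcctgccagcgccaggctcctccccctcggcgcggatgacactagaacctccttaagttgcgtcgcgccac
Il2ra, chr2:11642542-11642791, plus strand: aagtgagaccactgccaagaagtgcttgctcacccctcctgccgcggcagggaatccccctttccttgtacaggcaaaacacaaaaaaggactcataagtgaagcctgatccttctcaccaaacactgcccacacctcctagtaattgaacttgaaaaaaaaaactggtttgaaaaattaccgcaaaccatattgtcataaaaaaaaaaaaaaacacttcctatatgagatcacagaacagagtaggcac
Cd27, chr6:125237028-125237277, minus strand: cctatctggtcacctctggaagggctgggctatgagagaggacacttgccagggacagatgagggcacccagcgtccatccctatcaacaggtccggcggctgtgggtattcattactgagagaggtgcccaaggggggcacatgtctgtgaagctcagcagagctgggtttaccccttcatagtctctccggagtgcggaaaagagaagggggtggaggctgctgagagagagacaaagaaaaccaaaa
Gzma, chr13:113100982-113101231, minus strand: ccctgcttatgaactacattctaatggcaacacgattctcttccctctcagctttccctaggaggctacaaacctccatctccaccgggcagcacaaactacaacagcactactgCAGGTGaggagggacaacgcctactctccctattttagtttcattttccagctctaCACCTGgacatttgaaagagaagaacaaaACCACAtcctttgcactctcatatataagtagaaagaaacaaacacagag

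Gzma held 2 CACCTG matches, 1 on each strand, and 1 TGTGGT match, read here as ACCACA on the other strand; the 3 matches do not overlap. The windows of Gata3, Il2ra and Cd27 held none of the 4 motifs, which says only that these letters are not there. Over the 31 promoters of the listed genes, GAGGAA stood in 35.5%, TGTGGT in 35.5%, CACCTG in 32.3% and AGATAA in 9.68%. Over 32851 promoters of the same length the shares were 23.3%, 14%, 17.2% and 9.99%. The GAGGAA matches belonged to Bcl11b, Cd3d, Cd3e, Cd5, Cd8a, Gzmm, Lat, Lck, Tcf7 and Zap70. A match is a description of the letters and not a binding site.

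The CD3 chains and the zeta chain, which carry the signal of the T cell receptor, did not pass in any comparison. Cd3d was the most abundant of them, with 1.94, 2.8 and 0.774 CPM in WT, 3.26, 1.59 and 1.47 in URE het, 2.73, 0.592 and 2.15 in Tet2 het and 4.58, 0.399 and 1.56 in Tet2 KO. In the compound mutants Cd3d was at 0.683 and 0.849 CPM in URE het Tet2 het and 0.803, 0.0573 and 1.81 in URE het Tet2 KO. The 2 sets of libraries overlapped, and the difference between AML and Normal was -1.25 ± 0.66 (adjusted p = 0.241). Cd3d had its highest level in Tet2 KO library 1, and 6 Normal libraries lay above every AML library.

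Cd3e, the chain most used to mark T cells, was high in 1 library. It stood at 0.0926, 0.985 and 0.0673 CPM in WT, 0, 0.0664 and 0.115 in URE het, 0.0992, 0.178 and 0.687 in Tet2 het and 0, 0.0665 and 0.0294 in Tet2 KO. Compound mutant libraries had 0 and 0.149 CPM in URE het Tet2 het and 0, 0 and 2.93 in URE het Tet2 KO. URE het Tet2 KO library 3, with 97 counts, was above all other libraries, of which WT library 2 came next with 32 counts; 5 libraries were at 0. Without that AML library the difference between AML and Normal turned from 1.12 to -2.89 (adjusted p = 0.268). Reads of Cd3e cannot be told from those of the overlapping Gm48719 where strand was not used.

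Cd3g, the gamma chain, was highest in the same library, at 0.968 CPM, against 0.0366 to 0.617 CPM in Normal and 0 to 0.276 CPM in the other AML libraries. Cd247, the zeta chain, ran from 0.344 to 1.48 CPM in Normal and from 0.229 to 0.817 CPM in AML. Neither gene passed (log2 fold changes 0.12 and -0.47, adjusted p = 0.95 and 0.52). Cd3d, Cd3e and Cd3g lie within 40.1 kb of chromosome 9, and their order of levels differed between libraries.

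The alpha and beta constant segments of the T cell receptor itself, Trac, Trbc1 and Trbc2, are not on the list and were added after their values were seen. Their summed level ran from 0.559 to 5.35 CPM in Normal libraries. Among the AML libraries the sums of URE het Tet2 het were 0.130 and 5.67 CPM, and those of URE het Tet2 KO were 0.211, 0.143 and 18.2 CPM. URE het Tet2 KO library 3 was above all others, with 69 counts of Trac, 398 of Trbc1 and 136 of Trbc2. The delta and gamma constant segments, Trdc and Tcrg-C1, were not highest in that library. Trdc had 0 counts there, against 36 in WT library 2, and Tcrg-C1 stood at 1.60 CPM, against 1.82 in WT library 2. Trbc1 and Trbc2 are nearly identical, so their split is uncertain. Cd4 and Cd8a, the coreceptors of mature T cells, were both at 0 counts in URE het Tet2 KO library 3.

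**Figure D3:**
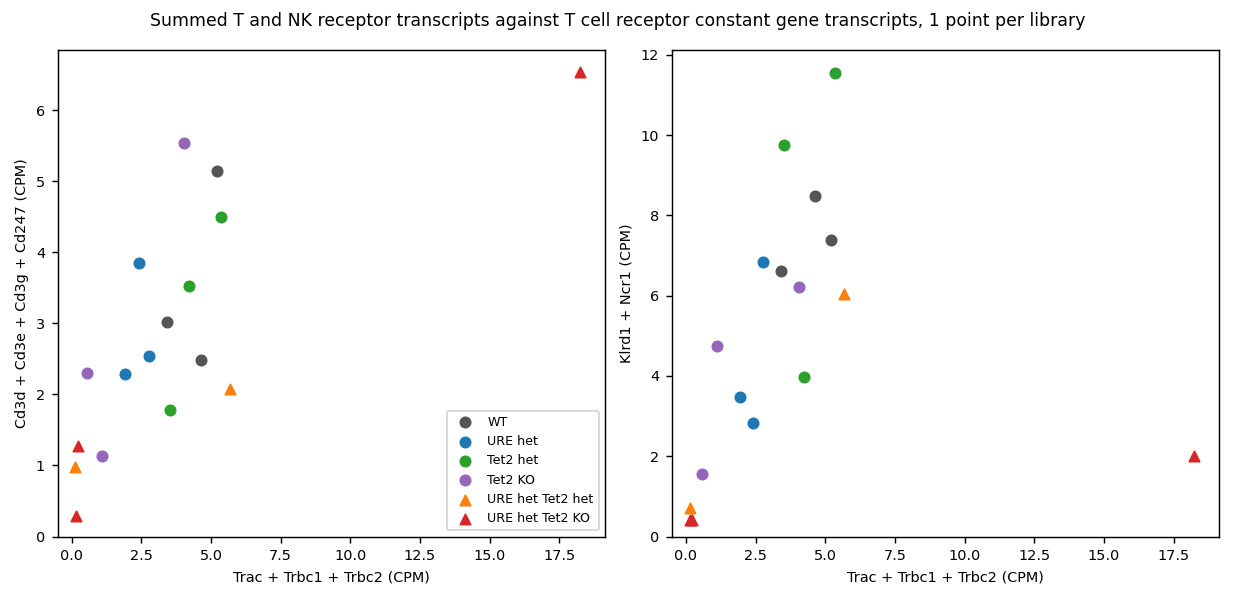
Summed CPM of the 4 genes of the CD3 complex (left) and of the NK receptor genes Klrd1 and Ncr1 (right), 1 point per library. The horizontal axis is the summed CPM of Trac, Trbc1 and Trbc2. Circles are Normal and triangles AML. URE het Tet2 KO library 3 lies far right at 18.2 CPM, with the highest CD3 sum (6.53 CPM) and a low NK sum (2 CPM); 3 AML libraries lie near the origin.

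Genes of signalling next to the receptor did not pass in any comparison, and 5 of the 6 had negative differences between AML and Normal (median -0.37). Lck, the kinase that starts T cell receptor signalling, stood at 2.1, 1.6 and 2.72 CPM in WT, 1.39, 0.963 and 0.953 in URE het, 1.39, 2.04 and 2.86 in Tet2 het and 1.34, 0.799 and 1.15 in Tet2 KO. The AML libraries held 0.228 and 2.85 CPM in URE het Tet2 het and 0.254, 0.258 and 1.18 in URE het Tet2 KO. Lck in URE het Tet2 het library 2 was near the top of the Normal range, and 3 AML libraries were below every Normal library. The difference was -0.70 ± 0.49 (adjusted p = 0.393).

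Lat, the adaptor that Zap70 phosphorylates, stood at 2.25, 2.37 and 2.93 CPM in WT, 3.04, 1.83 and 1.53 in URE het, 1.89, 1.33 and 2.8 in Tet2 het and 1.15, 1.23 and 1.24 in Tet2 KO. Levels in AML were 0.846 and 6.01 CPM in URE het Tet2 het and 0.634, 0.143 and 0.907 in URE het Tet2 KO. Its highest level of all was in URE het Tet2 het library 2, while the 4 other AML libraries lay below every Normal library. With AML values on either side of the Normal range, the difference was -0.45 ± 0.43 (adjusted p = 0.555).

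Txk, a kinase of the Tec family, stood at 0.926, 0.738 and 2.62 CPM in WT, 1.03, 1.13 and 2.48 in URE het, 1.49, 2.87 and 2.75 in Tet2 het and 2.21, 1.13 and 0.676 in Tet2 KO. Among the compound mutants, Txk measured 1.4 and 2.12 CPM in URE het Tet2 het and 0.254, 1.09 and 1.97 in URE het Tet2 KO. AML and Normal overlapped except for URE het Tet2 KO library 1, which was lowest (-0.22 ± 0.45, adjusted p = 0.812). Of the rarer signalling genes, Zap70 ran from 0 to 0.463 CPM in Normal and from 0 to 0.363 CPM in AML, with a difference near 0 (0.02). Skap1, an adaptor of adhesion, and Sh2d1a, the adaptor SAP, were each highest among the AML libraries in URE het Tet2 KO library 3, at 0.726 and 0.756 CPM.

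Among the lineage transcription factors Gata3 fell in AML. Gata3 (chr2:9857078-9890034), needed for the T cell lineage and for type 2 lymphoid cells, stood at 0.864, 0.923 and 1.31 CPM in WT, 1.65, 0.465 and 0.549 in URE het, 1.09, 0.563 and 1.12 in Tet2 het and 0.802, 0.566 and 0.618 in Tet2 KO. In the compound mutants Gata3 was at 0.0325 and 1.06 CPM in URE het Tet2 het and 0.0846, 0.0287 and 0.0907 in URE het Tet2 KO. All AML libraries but URE het Tet2 het library 2 lay below every Normal library, and that library, with 50 counts, lay within the Normal range. Gata3 was 4.35-fold lower in AML (log2 fold change -2.12 ± 0.60, adjusted p = 0.0347). The call was near the threshold. It ended without WT library 3 (adjusted p = 0.0517), URE het library 1 (0.0504), Tet2 het library 3 (0.0523), Tet2 KO library 3 (0.0501), URE het Tet2 het library 1 (0.0721), or URE het Tet2 KO library 2 (0.085) or library 3 (0.061), and without URE het Tet2 het library 2 the change was -4.10. Within title numbers 1 to 7 the change was -4.23. Exons of Gata3 overlap Gm13256 and 9230102O04Rik.

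Tcf7, which encodes TCF-1 of early T cell commitment, was the most abundant of the transcription factors. It stood at 3.06, 2.62 and 6.86 CPM in WT, 3.04, 2.86 and 3.41 in URE het, 2.33, 4.12 and 4.23 in Tet2 het and 1.49, 1.83 and 1.5 in Tet2 KO. Compound mutant libraries had 0.715 and 4.86 CPM in URE het Tet2 het and 2.92, 0.631 and 2.72 in URE het Tet2 KO. Levels overlapped widely (-0.28 ± 0.42, adjusted p = 0.726). Eomes, a factor of NK and memory T cells, ran from 0.133 to 2.09 CPM in Normal and from 0.0860 to 1.09 CPM in AML (-0.66, adjusted p = 0.578).

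Bcl11b, a factor that fixes the T cell fate, was nearly absent except in 1 library. It stood at 0.216, 0.523 and 0.404 CPM in WT, 0.366, 0.133 and 0.115 in URE het, 0.0496, 0.148 and 0.172 in Tet2 het and 0.0764, 0 and 0.0882 in Tet2 KO. The AML libraries held 4.29 and 0.0425 CPM in URE het Tet2 het and 0, 0 and 0.0302 in URE het Tet2 KO. The level in URE het Tet2 het library 1, with 132 counts, was above all others, of which WT library 2 came next with 17 counts, and the 4 other AML libraries had at most 2 counts. The same library had 0 counts of Cd3e, Cd3g, Cd4 and Trac. The test of AML against Normal gave 0.18 (adjusted p = 1.00).

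The largest rises and falls came among the coreceptors and other surface receptors, of which 8 of 9 were tested, 2 rising and 2 falling. Thy1 (chr9:44043384-44048579), a surface glycoprotein of T cells and of mouse stem cells, stood at 1.33, 2.03 and 1.95 CPM in WT, 0.623, 1.16 and 0.491 in URE het, 1.39, 1.75 and 2.52 in Tet2 het and 0.955, 0.665 and 0.794 in Tet2 KO. Levels in AML were 5.43 and 0.722 CPM in URE het Tet2 het and 0.972, 49.7 and 36.2 in URE het Tet2 KO. Thy1 in URE het Tet2 KO libraries 2 and 3 was far above all other libraries, and URE het Tet2 het library 1 was above every Normal library, while the 2 other AML libraries lay within the Normal range. It was 7.85-fold higher in AML (2.97 ± 0.54, adjusted p = 0.00416). Without URE het Tet2 het library 1 it was 1.93 (0.0848), within title numbers 8 to 17 it was 2.14 (0.00197) and within 1 to 7 it was 1.06 (0.109). Of 15 genes tested within 300 kb of Thy1, none passed; nor did any of the 6 beside Gata3 or the 7 beside Gzma.

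Cd28 (chr1:60716800-60773359), the main costimulatory receptor of T cells, stood at 1.27, 2.25 and 1.35 CPM in WT, 1.91, 1.59 and 2.63 in URE het, 1.34, 1.36 and 1.12 in Tet2 het and 1.57, 1.16 and 1.03 in Tet2 KO. Among the compound mutants, Cd28 measured 40.3 and 2.02 CPM in URE het Tet2 het and 0.0423, 5.08 and 12 in URE het Tet2 KO. Cd28 in URE het Tet2 het library 1 and in libraries 2 and 3 of URE het Tet2 KO lay above every Normal library, and URE het Tet2 KO library 1, with 1 count, lay below every one. Cd28 was 7.25-fold higher in AML (2.86 ± 0.62, adjusted p = 0.0108). Without URE het Tet2 het library 1 it was 1.16 (0.317), without URE het Tet2 KO library 3 it was 2.27 (0.0467), within title numbers 8 to 17 it was 1.56 (0.00949), and within 1 to 7, with 1 library of each compound genotype, the direction turned to -0.26 (0.804).

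Beside Cd28, 7 genes within 300 kb were tested and 1 passed. This was Gm11579, an uncharacterised gene that begins 3.31 kb beyond the end of Cd28 on chromosome 1, chosen here after its values were seen. It had 111 counts in URE het Tet2 het library 1, 33 in URE het Tet2 KO library 3, 9 in URE het Tet2 KO library 2 and at most 3 in every other library. These were also the 3 libraries with the most Cd28, in the same order. The difference between AML and Normal was 5.42 ± 0.94 (adjusted p = 0.0043). Icos, a costimulatory receptor gene on the same chromosome related to Cd28, was lower without passing (-2.12, adjusted p = 0.0952).

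Cd27 (chr6:125232622-125237010) fell in AML from the highest level after that of Nkg7. It stood at 78.1, 98.8 and 70.4 CPM in WT, 58.8, 20 and 14.8 in URE het, 54.5, 40.7 and 58.9 in Tet2 het and 52.4, 40.3 and 44.1 in Tet2 KO. In the compound mutants Cd27 was at 3.93 and 33.1 CPM in URE het Tet2 het and 12.5, 2.24 and 3.3 in URE het Tet2 KO. All AML libraries but URE het Tet2 het library 2 lay below the lowest Normal library, URE het library 3, and 10 of 12 Normal libraries lay above every AML library. Cd27 was 4.71-fold lower in AML (-2.23 ± 0.52, adjusted p = 0.0146). Without URE het Tet2 het library 1 it was -1.83 (0.0645), without URE het Tet2 het library 2 it was -3.36, and within title numbers 1 to 7 it was -3.16.

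Beside Cd27, which early lymphoid progenitors also carry, 5 of 10 genes of lymphoid-primed progenitors were lower in AML and none higher. These were Rag1, Rag2, Ly6d, Dntt and Il7r, with log2 fold changes from -5.96 to -2.68. The summed level of that list ran from 197 to 363 CPM in Normal and from 183 to 343 CPM in AML. Of 13 B cell genes 7 were lower and 1 higher, Igll1 (log2 fold change 7.70). The summed level of the B cell list had a median of 27.0 CPM in Normal and 103 CPM in AML. Igll1 alone had medians of 0.356 CPM in Normal and 96.9 CPM in AML, so the higher sum does not describe the list as a whole. Of 13 stem cell genes 5 were lower. Over all genes tested 4.02% were lower and 6.94% higher. The part of these lists in the fall of Cd27 was not tested.

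Cd4 (chr6:124864692-124888221), the coreceptor of helper T cells, stood at 1.45, 0.554 and 0.471 CPM in WT, 0.22, 0.133 and 0 in URE het, 0.347, 0.651 and 0.544 in Tet2 het and 0.267, 0.2 and 0.5 in Tet2 KO. Compound mutant libraries had 0 and 0.0849 CPM in URE het Tet2 het and 0.0423, 0 and 0 in URE het Tet2 KO. The 5 AML libraries held at most 4 counts each, and 11 of 12 Normal libraries were above them; URE het library 3 was at 0. Cd4 was 12.8-fold lower in AML (-3.68 ± 0.86, adjusted p = 0.0144), a fold that rests on few counts. Without URE het Tet2 het library 1 it was -3.29 (0.0631), without URE het Tet2 KO library 1 it was -4.67, without URE het Tet2 het library 2 it was -5.50, and within title numbers 1 to 7 it was -4.72 (0.0526). Cd4 and Cd27 lie on the same chromosome and share neighbours: 1 of the 38 genes tested within 300 kb of Cd4 and 2 of the 27 within 300 kb of Cd27 passed, 2010008C14Rik beside both (-1.18 ± 0.34, adjusted p = 0.0376) and Mrpl51, of the mitochondrial ribosome, beside Cd27 (-0.44 ± 0.13, 0.0453).

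Cd96, an adhesion receptor of T and NK cells, stood at 1.73, 3.88 and 6.22 CPM in WT, 5.42, 2.39 and 3.26 in URE het, 3.22, 4.56 and 5.78 in Tet2 het and 3.28, 3.76 and 3.76 in Tet2 KO. The AML libraries held 0.065 and 3.38 CPM in URE het Tet2 het and 0.338, 0.229 and 2.21 in URE het Tet2 KO. Low levels in URE het Tet2 het library 1 and URE het Tet2 KO libraries 1 and 2 lay below every Normal library, and the 2 other AML libraries lay within the Normal range. Cd96 did not pass (-1.62 ± 0.66, adjusted p = 0.128). Cd2, Cd5 and Cd6, further surface receptors of T cells, did not pass either, with differences of -0.90, 0.04 and -1.03.

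**Figure D4:**
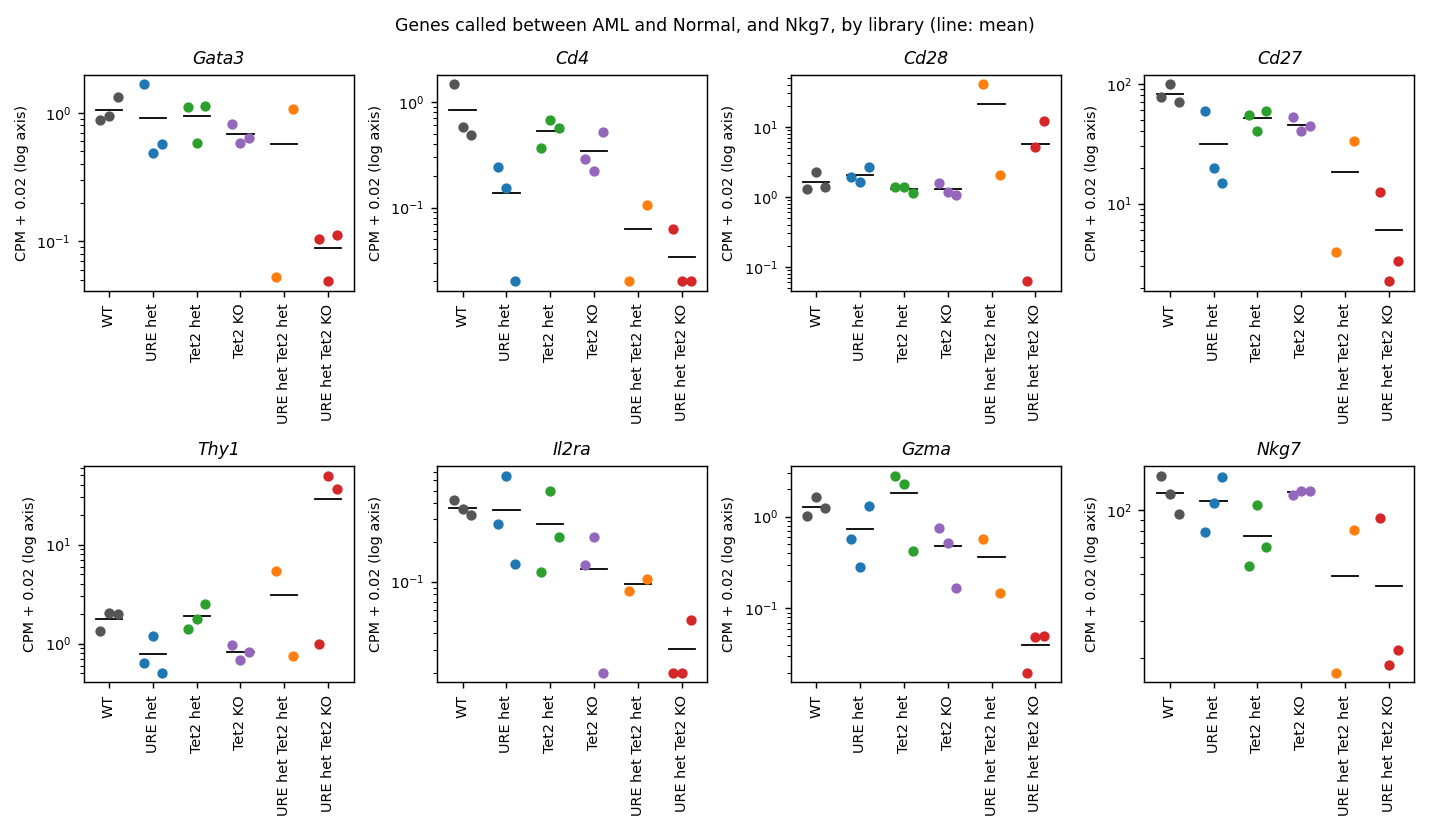
Level by library of the 7 genes that passed between AML and Normal, and of Nkg7, on log axes of CPM + 0.02; lines show the mean of each genotype. Cd27, Cd4, Gata3, Gzma and Il2ra lie lower in most compound mutant libraries. Thy1 is highest in URE het Tet2 KO libraries (49.7 and 36.2 CPM) and Cd28 in a URE het Tet2 het library (40.3 CPM). The same 3 AML libraries, from both compound genotypes, lie above every Normal library for both genes.

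Il2ra (chr2:11642807-11693193), the alpha chain of the interleukin 2 receptor and a mark of activated and regulatory T cells, fell in AML from a low level. It stood at 0.401, 0.338 and 0.303 CPM in WT, 0.256, 0.631 and 0.115 in URE het, 0.0992, 0.474 and 0.2 in Tet2 het and 0.115, 0.2 and 0 in Tet2 KO. Levels in AML were 0.065 and 0.0849 CPM in URE het Tet2 het and 0, 0 and 0.0302 in URE het Tet2 KO. Of the 12 Normal libraries 11 lay above every AML library, and Tet2 KO library 3 was at 0. Il2ra was 7.03-fold lower (-2.81 ± 0.81, adjusted p = 0.0372), on at most 19 counts a library. The call ended in 10 of the 17 omissions of a library, with adjusted p up to 0.128 (without WT libraries 1 or 2, URE het library 2, Tet2 het libraries 2 or 3, Tet2 KO library 2, either URE het Tet2 het library, or URE het Tet2 KO libraries 2 or 3). Without URE het Tet2 KO library 3 the change was -3.79 (0.0501), and it did not pass within title numbers 8 to 17 (-2.63, 0.137) or 1 to 7 (-3.40, 0.266). Of 9 genes tested within 300 kb of Il2ra 2 passed, both higher: Il15ra, a chain of the interleukin 15 receptor (1.20 ± 0.17, adjusted p = 0.00128), and Ankrd16 (1.00 ± 0.16, 0.00219).

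Il2rb, the beta chain shared by the receptors of interleukins 2 and 15, stood at 2.78, 4.12 and 3.97 CPM in WT, 0.843, 2.56 and 2.74 in URE het, 1.93, 4.59 and 4.41 in Tet2 het and 2.48, 0.599 and 0.5 in Tet2 KO. Among the compound mutants, Il2rb measured 0.423 and 2.04 CPM in URE het Tet2 het and 0.127, 0.258 and 5.75 in URE het Tet2 KO. Its highest level was in URE het Tet2 KO library 3 and its lowest in URE het Tet2 KO library 1, so that AML spanned more than the Normal range (-0.57 ± 0.70, adjusted p = 0.66). Ccr7, the receptor that guides T cells to lymph nodes, ran from 0.0333 to 0.617 CPM in Normal and from 0.0423 to 0.255 CPM in AML (-1.08, adjusted p = 0.223).

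Of the 6 cytotoxic and secreted effectors Gzma fell, 3 others had lower and 2 had higher values without passing. Gzma (chr13:113093825-113100981), a granzyme of cytotoxic lymphocytes, stood at 0.988, 1.6 and 1.21 CPM in WT, 0.55, 0.266 and 1.3 in URE het, 2.78, 2.25 and 0.401 in Tet2 het and 0.726, 0.499 and 0.147 in Tet2 KO. In the compound mutants Gzma was at 0.553 and 0.127 CPM in URE het Tet2 het and 0, 0.0287 and 0.0302 in URE het Tet2 KO. URE het Tet2 KO libraries had at most 1 count each, and URE het Tet2 het library 1, with 17, lay within the Normal range. Gzma was 10.1-fold lower in AML (-3.33 ± 0.70, adjusted p = 0.00881). It was the 1 gene of the 7 that passed under every omission of a library, with adjusted p from 0.00681 to 0.0244; without URE het Tet2 het library 1 it was -4.01 and within title numbers 1 to 7 it was -4.46.

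Nkg7 stood at 145, 119 and 95.8 CPM in WT, 78.7, 108 and 144 in URE het, 54.2, 105 and 66.7 in Tet2 het and 117, 123 and 123 in Tet2 KO. Compound mutant libraries had 17 and 80.2 CPM in URE het Tet2 het and 91.5, 18.4 and 21.8 in URE het Tet2 KO. Low levels of Nkg7 in URE het Tet2 het library 1 and URE het Tet2 KO libraries 2 and 3 lay below every Normal library, and the 2 other AML libraries lay within the Normal range. Nkg7 did not pass (-1.18 ± 0.40, adjusted p = 0.0738), but did within title numbers 8 to 17 (-1.41, 0.00225) and within 1 to 7 (-1.21, 0.00113), where the spread rests on 2 WT libraries.

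Ccl5, a chemokine that T and NK cells release, stood at 4.51, 7.48 and 6.86 CPM in WT, 1.65, 2.92 and 3.12 in URE het, 4.22, 4.77 and 6.75 in Tet2 het and 3.21, 1.5 and 0.559 in Tet2 KO. The AML libraries held 0.618 and 2.61 CPM in URE het Tet2 het and 0.254, 0.889 and 1.75 in URE het Tet2 KO. AML and Normal overlapped, with Tet2 KO library 3 within the AML range, and 9 of 12 Normal libraries lay above every AML library (-1.46 ± 0.48, adjusted p = 0.0616). Gzmb, Gzmm and Prf1 were rare. Gzmb, a granzyme that triggers cell death, had a median of 0.722 CPM in Normal and 0.201 in AML (-1.52, adjusted p = 0.102). Gzmm, a granzyme of NK cells, went the other way, with a median of 0.267 CPM in Normal and 0.688 in AML (1.21 ± 0.39, adjusted p = 0.0616), and Prf1, perforin, differed by 1.00 (adjusted p = 0.424).

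The NK cell receptor genes Klrd1 and Ncr1 were lower in most AML libraries without passing. Klrd1, which encodes CD94, stood at 1.33, 2.55 and 4.31 CPM in WT, 1.25, 2.09 and 3.15 in URE het, 0.992, 4.32 and 6.09 in Tet2 het and 2.48, 3.16 and 1.12 in Tet2 KO. Levels in AML were 0.358 and 3.5 CPM in URE het Tet2 het and 0, 0.229 and 0.393 in URE het Tet2 KO. Klrd1 in URE het Tet2 het library 2 was within the Normal range, while the 4 other AML libraries, at most 13 counts each, lay below every Normal library (-2.03 ± 0.66, adjusted p = 0.0604). Klrd1 passed within title numbers 8 to 17 (-1.68, 0.0209) and with DESeq2 (0.00318).

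Ncr1, the activating receptor NKp46, stood at 5.28, 4.83 and 4.17 CPM in WT, 1.58, 1.4 and 3.7 in URE het, 2.98, 5.42 and 5.47 in Tet2 het and 3.74, 1.6 and 0.441 in Tet2 KO. Among the compound mutants, Ncr1 measured 0.358 and 2.53 CPM in URE het Tet2 het and 0.423, 0.172 and 1.6 in URE het Tet2 KO. Tet2 KO library 3 was the lowest Normal library and close to the low AML libraries, 3 of which lay below it (-1.58 ± 0.59, adjusted p = 0.0985). URE het Tet2 KO library 3, with the highest sum of Trac, Trbc1 and Trbc2, had 53 counts of Ncr1 and 13 of Klrd1.

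Other genes of the same cells were read from lists that hold none of the 35. Of 38 other T cell genes 32 were tested, of which 7 were lower (median -0.46), beside 4.02% lower over all genes. Of these 7, those with the smallest p were Cd226, an activating receptor (-3.20, adjusted p = 0.00396), Il7r, the interleukin 7 receptor (-2.68, 0.0117), and Rhoh, a GTPase of blood cells (-0.99, 0.0226). Of 30 other NK cell genes 26 were tested and 4 were lower: Itga2 (-1.91, 0.00718), Klrc1 (-2.84, 0.0225), Sh2d1b1 (-1.75, 0.0308) and Klri2 (-2.50, 0.0312). Several of these genes, Il7r and Rhoh among them, are also expressed by other blood cells. The summed level of the other T cell genes ran from 1420 to 2220 CPM in Normal and from 1292 to 4016 CPM in AML, and that of the other NK cell genes from 532 to 1202 and from 376 to 1098 CPM.

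Gata3 is also a gene of type 2 innate lymphoid cells, whose list had 2 genes higher, Il17rb and Rora, and 2 lower, Il1rl1 and Gata3, of 8 tested. Mast cell and basophil genes had 3 of 9 lower and none higher, and plasmacytoid dendritic cell genes 4 of 9 lower. The shares over all genes were 4.02% lower and 6.94% higher. Of 11 neutrophil genes 4 were lower, S100a8, S100a9, Ltf and Camp, and 1 was higher, Ctsg. Their summed level ran from 33655 to 95763 CPM in Normal, with a median of 51390, and from 19911 to 42486 CPM in AML, with a median of 20849. Of 10 erythroid genes Car2 was lower and none higher, and the sums had medians of 61.7 CPM in Normal and 8.06 in AML, with ranges from 37.1 to 90 and from 3.45 to 41.5. The part of these lists in the results of the listed genes was not tested.

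What the enhancer deletion added to loss of both Tet2 copies was read from URE het Tet2 KO against Tet2 KO, which shares libraries with the comparison of AML with Normal. Thy1 alone among the 33 passed, and 0.977% of all genes did, 0.396% higher and 0.581% lower. From 0.955, 0.665 and 0.794 CPM in Tet2 KO it stood at 0.972, 49.7 and 36.2 CPM in the compound mutants, 2 of 3 far above and 1 just above the Tet2 KO libraries. Thy1 was 35.9-fold higher (5.17 ± 1.03, adjusted p = 0.0361). The call ended without a filter on low counts (0.0655) and in 13 of the 17 omissions of a library, those of every WT, URE het and Tet2 KO library, Tet2 het libraries 2 and 3, and URE het Tet2 KO libraries 2 and 3 (0.0505 to 0.143, with changes from 4.51 to 5.30).

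Lower values that did not pass in that comparison were Cd27 (-2.93, adjusted p = 0.0695), Gzma (-4.17, 0.077), Gata3 (-3.24, 0.0968), Cd4 (-4.42, 0.104) and Klrd1 (-3.36, 0.104). The median of the 33 was -0.52, and 21 were negative, beside 47.4% of all genes. Cd3e was 4.75 higher (adjusted p = 0.255), carried by URE het Tet2 KO library 3 alone. Of the other T cell genes Cd226 was lower (-3.91, 0.0425), and no other NK cell gene passed.

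URE het Tet2 het against Tet2 het, with 2 against 3 libraries, gave no call among the 33 genes and none over all 19951 (0% called), while 5 of the 33 and 2652 genes had an unadjusted p under 0.05. With DESeq2 600 genes passed, Cd28 among them. Cd28 differed by 4.05 ± 1.19 (adjusted p = 0.174) and Bcl11b by 4.03 ± 1.23 (0.191), each carried by library 1 of the compound mutant, at 40.3 CPM of Cd28 and 4.29 of Bcl11b. Library 2 was at 2.02 and 0.0425 CPM, and Tet2 het ran from 1.12 to 1.36 CPM of Cd28 and 0.0496 to 0.172 CPM of Bcl11b.

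The single mutants gave no call against WT, with which they share the 3 WT libraries. Over all genes 0% were called in URE het, Tet2 het and Tet2 KO, with 753, 585 and 512 genes at an unadjusted p under 0.05 and 7, 1 and 12 calls with DESeq2. Each of the 33 genes had an adjusted p of 1 in edgeR. In URE het the lowest unadjusted p was that of Cd4 (-2.81 ± 0.98), at 0.22, 0.133 and 0 CPM against 1.45, 0.554 and 0.471 in WT, which do not overlap. Cd27 in URE het differed from WT by -1.40, and its libraries 2 and 3 had 20 and 14.8 CPM, the lowest of the Normal libraries.

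In Tet2 KO the genes with an unadjusted p under 0.05 were Ccl5 (-1.85 ± 0.68), Bcl11b (-2.70 ± 1.25) and Tcf7 (-1.38 ± 0.63), and in Tet2 het it was Gzmb (-1.79 ± 0.79). Tcf7 ran from 1.49 to 1.83 CPM in Tet2 KO, below every other Normal library, and Ccl5 from 0.559 to 3.21 CPM, against 4.51 to 7.48 CPM in WT. Medians over the 33 genes were -0.75 in URE het, -0.15 in Tet2 het and -1.06 in Tet2 KO, with 28, 22 and 28 negative. Over all genes these medians were -0.0066, 0.0044 and -0.0011, with 50.6%, 49.4% and 50.1% negative. The comparisons share the WT libraries, so they are not independent of each other.

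Whether the enhancer deletion acted differently with and without Tet2 was tested as an interaction, the difference of URE het Tet2 KO from Tet2 KO less that of URE het from WT. No gene passed in edgeR (0% called; 1618 genes at an unadjusted p under 0.05, and 145 with DESeq2). Thy1 gave 6.39 ± 1.36 (adjusted p = 0.293), from -1.22 in URE het against WT to 5.17 on the Tet2 KO background. It passed with DESeq2 (0.000338) and without URE het Tet2 KO library 1 (6.95, 0.0064), URE het Tet2 het library 1 (0.0479) or URE het Tet2 het library 2 (0.0488). Of the 33 genes 16 were positive and 17 negative, beside 47.9% negative over all genes.

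By library, the summed level of all 35 genes ran from 146 to 268 CPM in Normal, with a median of 191, and from 81.8 to 155 CPM in AML, with a median of 104. Nkg7 and Cd27 make up most of the sum in every Normal library and in URE het Tet2 het library 2 and URE het Tet2 KO library 1, while the gene with the highest level was Cd28 in URE het Tet2 het library 1 and Thy1 in URE het Tet2 KO libraries 2 and 3. The highest sum of the AML libraries was that of URE het Tet2 het library 2, with 1 gene at 0, and URE het Tet2 KO libraries 1 and 2 had 10 genes at 0 each. Of the roles, NK receptors ran from 1.56 to 11.6 CPM in Normal and from 0.401 to 6.03 CPM in AML, and the CD3 complex from 1.13 to 5.54 and from 0.287 to 6.53 CPM.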

How the data were processed

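RNA of sorted cKit+ bone marrow cells was sequenced in 17 libraries. The deposited table holds raw counts per feature, made by the authors and not normalized. Reads were aligned with STAR to GRCm38, per the submitters' processing notes; the annotation, counting tool and strand setting are not given in the sources used here. Of 96004 features, 48361 named with enh were not used. Identifiers were matched without version to GENCODE vM21 (47224 of 47643; all 35 listed genes), which gave symbols, coordinates and exon lengths.

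After filterByExpr (minimum count 10 and total 15) 19951 genes remained, and edgeR 4.0.16 (TMM, robust quasi-likelihood F test, 1 mean per genotype, R 4.3.3) tested them, two-sided, with Benjamini-Hochberg adjustment at 0.05 within each comparison. The script was tested on simulated data. CPM are per 1 M counts of tested genes after TMM scaling. Gene counts of 21.1 to 38.3 M per library make 1 count about 0.03 CPM, so genes under 0.5 CPM rest on few reads.

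The listed genes, their roles and the other lists were chosen with earlier results of these data known. All 35 are accounted for. Those that passed or averaged 1 CPM are given by library, with up to 4 passing genes of the other T cell and NK cell lists by smallest p; 1 gene of the T cell list is not reported here. Cd3e, Bcl11b, Trac, Trbc1, Trbc2, Trdc, Tcrg-C1 and Gm11579 are given by library or count after their values were seen. Alternatives were DESeq2 size factors, no filter (at least 1 count), DESeq2 1.42.0, a term for the title number range, fits within each range, and leaving out each library. Figures were drawn with matplotlib 3.10.9. Where strand was not used, reads of Cd3e, Cd247, Gata3, Skap1, Sh2d1a and Eomes cannot be told from those of overlapping genes on the other strand.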

Additional observations from a re-analysis of the deposited data

Results flagged for a closer look

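In 6 of the 33 tested genes the highest of the 5 AML libraries stood apart from the others, its gap to the next being more than 0.71 of the whole range (Dixon's 95% limit for 5 values). The gaps were taken on log2(CPM + 0.5), so they are not ratios of the CPM values given here. For 5 independent, normally distributed values the limit is passed in about 1 of 20 groups. Here every gene is read from the same 5 libraries of both compound genotypes, with many values near 0. The count of 6 therefore cannot be set against that rate. URE het Tet2 KO library 3 stood apart for Cd3e at 2.93 CPM (gap 0.865 of the range), Skap1 at 0.726 CPM (0.742) and Sh2d1a at 0.756 CPM (0.754). URE het Tet2 het library 1 stood apart for Bcl11b at 4.29 CPM (0.964). URE het Tet2 het library 2 stood apart for Gata3 at 1.06 CPM (0.898) and Klrd1 at 3.50 CPM (0.721), both within the range of the Normal libraries. On CPM itself, a scale added after the data were seen, 9 genes pass the limit, these 6 and also Lat (0.870), Gzma (0.770) and Cd3g (0.715).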

How the results depend on the processing

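In AML against Normal the count of all genes called, 2188, became 3664 with a term for the title number range and 4307 within titles 8 to 17, and ran from 845 to 3998 when a library was left out. The count of listed genes called, 7, became 14 with DESeq2 and ran from 1 to 15 when a library was left out. The count of all genes also changed between settings, so these counts alone do not set the listed genes apart. Within titles 1 to 7 every genotype but WT has 1 library, so no count of calls is given there. Cd28 turned to -0.26 within titles 1 to 7. The AML libraries there held its highest level of all libraries, URE het Tet2 het library 1, and its lowest, URE het Tet2 KO library 1. The cause of these levels was not tested. In URE het Tet2 KO against Tet2 KO the 195 genes became 1212 with DESeq2 and 415 with the range term, and ran from 3 to 1799; the 1 listed gene became 0 without a filter, 6 with DESeq2 and 2 with the range term, and ran from 0 to 5. In URE het Tet2 het against Tet2 het the 0 genes became 600 with DESeq2 and 145 with the range term, and ran from 0 to 1219; listed genes became 1 with DESeq2 and ran from 0 to 5. Against WT, DESeq2 called 7 genes in URE het, 1 in Tet2 het and 12 in Tet2 KO, and leaving out a library gave 0 to 0 in each. The interaction gave 1 gene without a filter and 145 with DESeq2, and ran from 0 to 279; listed genes became 1 with DESeq2 and ran from 0 to 1. DESeq2 size factors left every one of these counts within 1.5 times of its value. Leaving out 1 of the 2 URE het Tet2 het libraries leaves a lone library that is assumed to vary like the other groups. No paired analysis was possible because no number is shared between groups: the titles number the libraries 1 to 17. Depth limits the 13 genes under 0.5 CPM, of which Cd8a and Tbx21 were not tested.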
